A study of Homo sapiens with 6 samples.

Results

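The mitochondrial carrier family was measured in the messenger RNA of SKOV3 cells, a human ovarian cancer cell line, after knockdown of EIF5A2. Members were chosen by gene symbol: every protein-coding gene whose symbol starts with SLC25A, together with UCP1, UCP2, UCP3, MTCH1 and MTCH2. This gave 53 genes of the 58825 in the table, of which 45 passed the filter on low counts. The family was selected because the fall of UCP2 between these groups was already known, so the values of UCP2 are given as a description, with no test. The other members entered by symbol alone, and their changes were tested.

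Mitochondrial carriers are small proteins that sit, for the most part, in the inner mitochondrial membrane and exchange metabolites, nucleotides, phosphate, amino acids and cofactors between the matrix and the cytosol. They are encoded in the nucleus, made on cytosolic ribosomes and brought into the membrane by the TOM and TIM22 complexes. UCP1 is the proton leak of brown fat, UCP2 is a widely expressed relative that has been reported to export dicarboxylates from the matrix, and UCP3 is the form of skeletal muscle. MTCH1, MTCH2 and SLC25A46 are relatives that moved to the outer membrane.

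The control cells received a negative control siRNA (NC, 3 libraries) and the knockdown cells an siRNA against EIF5A2 (si-EIF5A2, 3 libraries), which encodes a translation factor. Both groups are the same unmodified line transfected with the reagent INTERFERin, and the description of the series puts the harvest at 48 h. The labels do not say that the libraries came from separate cultures, so the p-values measure the spread between these libraries, which may be technical. A single siRNA was used, and what the siRNA does apart from lowering EIF5A2 cannot be told apart from the knockdown.

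The libraries held 46900204 to 74142267 estimated counts. Small values fall on steps of about 3.7 counts, so the number of fragments is lower than these totals. A limit of 3 such fragments for a gene at 0 corresponds to 0.151 to 0.234 CPM (counts scaled to a common library total, with TMM factors), and covers counting error only. EIF5A2 itself had 27.8, 29.8 and 29.9 CPM in the NC libraries and 2.76, 4.04 and 4.27 CPM in the si-EIF5A2 libraries, so the groups matched their labels. Of the markers of the line, KRT8, KRT18, PAX8 and ERBB2 were above 40 CPM in every library, CDH1 was at most 1.002 CPM and MUC16 was at 0. KRT8 and PAX8 were lower in si-EIF5A2, at log2 fold changes of -0.69 and -0.80 (edgeR adjusted p = 5.36e-04 and 9.28e-04). Those of KRT18 and ERBB2 were -0.08 and -0.02. KRT19, EPCAM and WT1 lay between 1.15 and 3.85 CPM. Of the immune genes, PTPRC and CD3E were at 0 in all 6 libraries and CD68 had 28.97 to 57.3 CPM. Of the brown fat genes, ADIPOQ and CIDEA were at 0 and PPARGC1A had 0.0565 to 1.77 CPM. The fibroblast genes COL3A1, DCN and LUM had 34, 11 and 11 counts in si-EIF5A2 replicate 3 and 0 in the other libraries, while COL1A1 had 0.0638 to 1.98 CPM and PDGFRA at most 0.298 CPM over all 6. The part of such cells in the results was not tested.

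A gene was called when edgeR's quasi-likelihood test gave an adjusted p (Benjamini-Hochberg, 16208 genes) under 0.05 at a fold change over 1.5. By this rule 24.6% of all genes tested were called, 13.6% lower and 11.1% higher in si-EIF5A2. In the family 12 of 45 members tested were called (26.7%), 6 lower and 6 higher, and without UCP2 the count was 11 of 44 (25%). The share is near that of all genes. The median log2 fold change of the family was 0.07, with an interquartile range from -0.44 to 0.38, beside -0.01 (-0.50 to 0.41) for all genes. Direction was split, with 20 members below 0 and 25 above. In 25 members (55.6%), or 24 without UCP2 (54.5%), the groups did not overlap, against 51.2% of all genes. At an adjusted p under 0.05 with no limit on the fold, 19 members passed (18 without UCP2), where 36.9% of all genes did. At the threshold of the methods, an unadjusted p below 0.05 with at least a doubling or halving, 5 members passed (4 without UCP2), where 14.6% of all genes did.

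**Figure D1:**
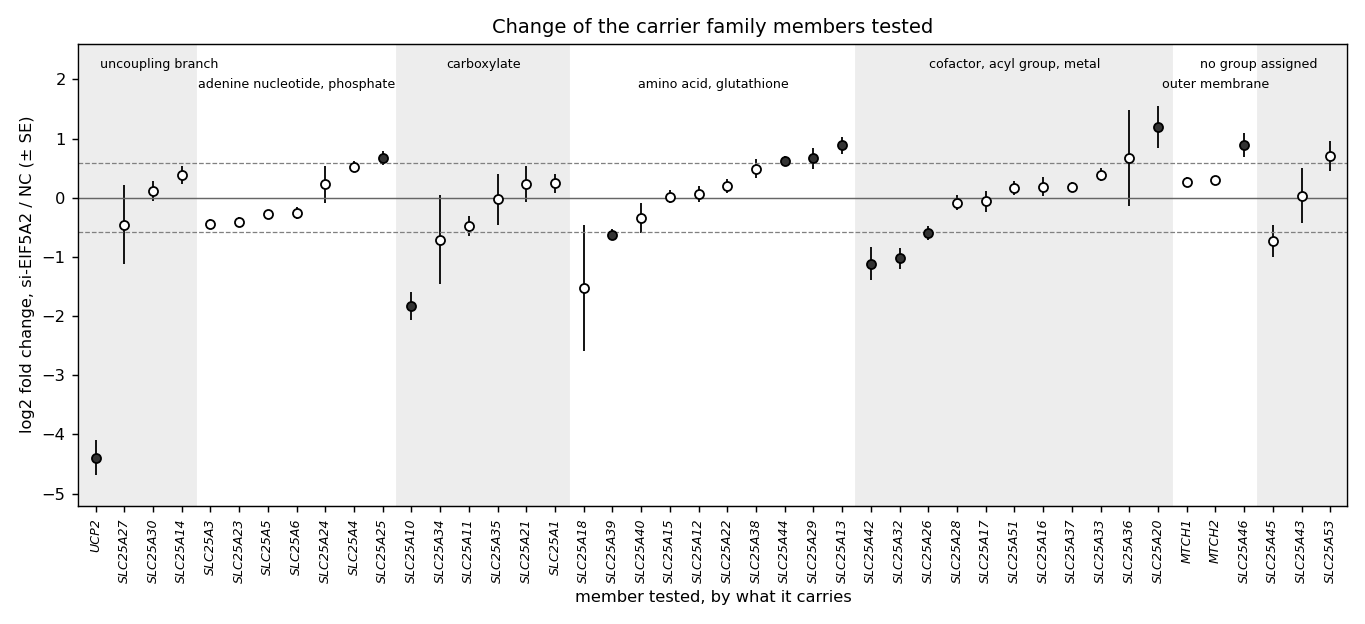
Log2 fold change of si-EIF5A2 over NC (y axis, ± SE) for 44 of the 45 members tested, grouped by what they carry (x axis); filled points are called and dashed lines mark a fold change of 1.5. UCP2 lies at -4.39, SLC25A10 at -1.83 is the next among called members, and the highest called member is SLC25A20 at 1.19.

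UCP2 (ENSG00000175567, chr11:73974667-73983307 in GRCh38, minus strand) had 22.4, 24.6 and 17.6 CPM in the NC libraries and 1.41, 1.035 and 0.626 CPM in the si-EIF5A2 libraries, from 1635, 1742 and 828 counts and from 72, 54 and 30 counts. The groups did not overlap, and the lowest NC value was more than 10 times the highest si-EIF5A2 value. The group means were 21.5 ± 3.57 and 1.02 ± 0.391 CPM (SD, n = 3 each). The second is 4.75% of the first, with a log2 fold change of -4.39 ± 0.30 (SE). On a scale that divides counts by the length of a gene's merged exons and is set to the same total in every library, UCP2 made up 0.561% ± 0.083 of the summed level of the family in NC and 0.0301% ± 0.0124 in si-EIF5A2 (SD, n = 3). It ranked 19th of the 53 members in NC by that level. In bulk RNA, fewer cells that express UCP2 and less UCP2 RNA per cell cannot be told apart.

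The other members of the uncoupling branch were at or near 0 or were not called. UCP1 was at 0 counts in every library. UCP3 had 15, 0 and 8 counts in NC and 12, 8 and 0 counts in si-EIF5A2, at most 0.235 CPM, and did not pass the filter. These counts are near the limit of 3 fragments, and a difference in UCP3 was not detectable at this depth. SLC25A14, SLC25A27 and SLC25A30, relatives named UCP5, UCP4 and KMCP1, had log2 fold changes of 0.38 ± 0.15, -0.45 ± 0.66 and 0.11 ± 0.17 (SE). Their edgeR adjusted p values were 0.0844, 0.643 and 0.664, and none of these was called. SLC25A14 did not overlap between the groups, with 4.69 to 5.62 CPM in NC and 6.30 to 7.24 CPM in si-EIF5A2.

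A promoter of UCP2 is shown beside those of SLC25A42 and SLC25A20, called members with an entry in the RefSeq promoter table (GRCh38.p14), to let their upstream sequence be compared. The RefSeq table also holds another UCP2 promoter, not shown, with 0 CCAAT boxes and 3 GC boxes in the 250 bases before its start. SLC25A42 was among the largest called falls after UCP2, and SLC25A20 was the largest called rise. SLC25A10, a larger called fall than SLC25A42, also has an entry but is not shown, so the printed sequences do not represent the called members. Bases run 5′ to 3′ on the strand of the gene, from 250 bases before the RefSeq start, and stop before the start of the gene in GENCODE 29, directly for UCP2 and SLC25A20 and 5 bases short of it for SLC25A42. Capitals mark the CCAAT box (CCAAT or its complement ATTGG) and the GC box (GGGCGG or CCGCCC), and no base is shared between these matches. The regions are chr11:73983308-73983452 (minus strand, UCP2), chr19:19063744-19063993 (plus strand, SLC25A42) and chr3:48898994-48899132 (minus strand, SLC25A20).
UCP2: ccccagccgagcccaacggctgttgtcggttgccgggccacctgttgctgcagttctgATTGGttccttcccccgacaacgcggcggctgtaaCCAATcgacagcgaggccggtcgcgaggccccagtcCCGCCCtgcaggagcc
SLC25A42: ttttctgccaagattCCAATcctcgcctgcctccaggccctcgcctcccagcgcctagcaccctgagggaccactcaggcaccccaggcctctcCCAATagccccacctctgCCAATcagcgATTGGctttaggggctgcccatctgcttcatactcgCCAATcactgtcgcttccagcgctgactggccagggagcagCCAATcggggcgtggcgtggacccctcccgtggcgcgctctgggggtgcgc
SLC25A20: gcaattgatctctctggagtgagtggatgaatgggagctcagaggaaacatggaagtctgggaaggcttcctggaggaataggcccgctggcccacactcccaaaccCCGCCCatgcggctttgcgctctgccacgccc

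The printed stretch of UCP2 held 2 CCAAT boxes and 1 GC box, that of SLC25A42 held 6 CCAAT boxes and 0 GC boxes, and that of SLC25A20 held 1 GC box. On both strands of the 250 bases before the start, a CCAAT box was found in 32.0% of all 35116 promoters in the table and in 39.0% of the 59 promoters of members, and a GC box in 42.6% and 67.8%. The E box CACGTG was found in 6.34% and 15.3%, and TATAAA in 10.7% and 6.78%. The E2F motifs TTTCGCGC, TTTGGCGC, TTTCCCGC and TTTGCCGC were found in 2.79% and 5.08%, and the cell cycle homology region TTTGAA in 13.3% and 11.9%. These shares are by entry: the 59 belong to 45 members, and SLC25A22 alone has 4. The 35116 were not limited to genes expressed here, and the differences between the shares were not tested. By gene, 6 of 11 called members with an entry had a CCAAT box, as had 21 of 39 tested members with an entry. Both counts include UCP2, for which the family was chosen. Of the called falls, UCP2 and SLC25A42 had a CCAAT box, and SLC25A10, SLC25A26 and SLC25A39 did not. Of the called rises, SLC25A13, SLC25A25, SLC25A29 and SLC25A44 had a CCAAT box, and SLC25A20 and SLC25A46 did not. Members with no entry included SLC25A2, SLC25A16, SLC25A30, SLC25A32, SLC25A35, SLC25A37 and SLC25A41.

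Among the 6 carboxylate carriers tested, SLC25A10 was called lower and none was called higher (16.7% called, beside 24.6% of all genes). SLC25A10 (chr17:81712236-81721016), the dicarboxylate carrier that exchanges malate and succinate for phosphate, had 15.8, 20.4 and 19.1 CPM in NC and 3.48, 6.55 and 5.57 CPM in si-EIF5A2. All si-EIF5A2 libraries were under 7 CPM and all NC libraries over 15 CPM. The fall to 28.2% of the NC level had a log2 fold change of -1.83 ± 0.24 (SE, edgeR adjusted p = 7.05e-04). It was called under all 14 alternatives, between -2.03 and -1.61. Of the others in this group, SLC25A11, the oxoglutarate/malate carrier, had -0.48 ± 0.17 (SE, edgeR adjusted p = 0.0622), and SLC25A1, the citrate carrier, had 0.25 ± 0.16 (adjusted p = 0.28). SLC25A21, SLC25A34 and SLC25A35, each at most 3.02 CPM in any library, lay between -0.71 and 0.23 and were not called. SLC25A10 shares exon sequence on the same strand with AC139530.2, which was at 0 counts in every library.

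**Figure D2:**
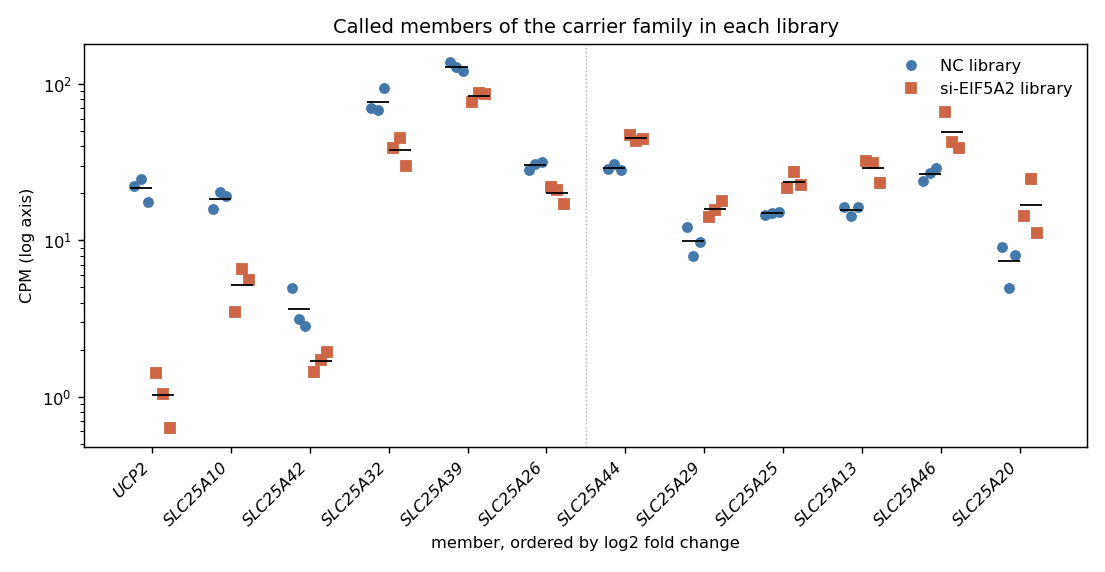
CPM on a log axis (y) of the 12 called members (x, ordered by log2 fold change) in each NC library (circles) and si-EIF5A2 library (squares), with group means as bars. The 6 members left of the dotted line were lower in all 3 si-EIF5A2 libraries and the 6 to its right were higher in all 3; UCP2 has the widest gap, from at least 17.6 CPM to at most 1.41 CPM.

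Carriers of cofactors, acyl groups and metals had 3 members lower and 1 higher of 12 tested (33.3% called, beside 24.6% of all genes). SLC25A32, the carrier for folate and FAD, had 69.9, 68.0 and 93.9 CPM in NC and 38.9, 44.98 and 30.1 CPM in si-EIF5A2. The lowest NC library lay above the highest si-EIF5A2 library, and the mean fell to 49.2% of NC (log2 fold change -1.02 ± 0.18 SE, edgeR adjusted p = 0.00395). SLC25A42 (chr19:19063999-19112888), a coenzyme A carrier, had 4.96, 3.13 and 2.85 CPM in NC and 1.43, 1.71 and 1.92 CPM in si-EIF5A2. NC replicate 1 stood above the other NC libraries, the groups did not overlap, and the log2 fold change was -1.12 ± 0.28 (SE, edgeR adjusted p = 0.0149). SLC25A26 (chr3:66133610-66388116), which imports S-adenosylmethionine, had 28.1, 30.7 and 31.9 CPM in NC and 22.1, 20.9 and 17.2 CPM in si-EIF5A2. Its fall of -0.59 ± 0.12 (SE, edgeR adjusted p = 0.00596) sits at the limit of a 1.5-fold change. SLC25A20 (chr3:48856931-48898993), which exchanges acylcarnitines for carnitine so that fatty acids can be oxidised, had 9.06, 4.95 and 8.02 CPM in NC and 14.4, 24.8 and 11.2 CPM in si-EIF5A2. It rose by 1.19 ± 0.36 on the log2 scale (SE, edgeR adjusted p = 0.0392), and its si-EIF5A2 libraries spread more than 2-fold.

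Several of these calls depended on single libraries. SLC25A20 was not called when any library but si-EIF5A2 replicate 3 was left out. Its edgeR adjusted p was then 0.0638, 0.0936 and 0.0988 without NC replicates 1, 2 and 3, and 0.071 and 0.0684 without si-EIF5A2 replicates 1 and 2, in a range of 5.86e-04 to 0.127 over all alternatives. SLC25A42 had an edgeR adjusted p of 0.0514 without NC replicate 1, and of 0.0507 with si-EIF5A2 replicate 1 left out, in a range of 0.00489 to 0.0514. SLC25A26 went under the fold limit at -0.58 without NC replicate 2, -0.56 without NC replicate 3, and at -0.50 with si-EIF5A2 replicate 3 left out. SLC25A32 was called under all 14 alternatives. SLC25A26 and SLC25A32 each overlap a gene on the opposite strand, LRIG1 (0.88, called higher) and DCAF13 (0.32), and since the strand setting of the counting is not stated, shared reads cannot be told apart.

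SLC25A33, a pyrimidine nucleotide carrier, had 0.39 ± 0.11 (SE, edgeR adjusted p = 0.0265), past the p but under the fold. SLC25A51, the NAD+ importer, SLC25A16, a second coenzyme A carrier, and the mitoferrins SLC25A28 and SLC25A37, which carry iron, lay between -0.08 and 0.19. SLC25A17, the peroxisomal member, was at -0.06 ± 0.18 (SE).

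Amino acid and glutathione carriers had 3 members higher and 1 lower of 10 tested (40% called, beside 24.6% of all genes). SLC25A13 (chr7:96120220-96322147), the aspartate/glutamate carrier citrin of the malate-aspartate shuttle, had 16.4, 14.3 and 16.3 CPM in NC and 32.1, 31.3 and 23.4 CPM in si-EIF5A2. All si-EIF5A2 libraries exceeded all NC libraries, with a log2 fold change of 0.89 ± 0.14 (SE, edgeR adjusted p = 0.00198), and the call held under all 14 alternatives. SLC25A44 (chr1:156193932-156212796), the carrier of branched-chain amino acids, had 28.6, 30.8 and 28.1 CPM in NC and 47.5, 43.0 and 44.4 CPM in si-EIF5A2. The libraries of each group were close together and the log2 fold change was 0.63 ± 0.09 (SE, edgeR adjusted p = 9.71e-04). SLC25A29 (chr14:100291111-100306547), a carrier of basic amino acids, had 12.2, 7.98 and 9.70 CPM in NC and 14.1, 15.6 and 17.8 CPM in si-EIF5A2. The groups did not overlap but NC replicate 1 came within 2 CPM of si-EIF5A2 replicate 1, and the log2 fold change was 0.67 ± 0.18 (SE, edgeR adjusted p = 0.0194). SLC25A39 (chr17:44319625-44324870), which imports glutathione, was the one that fell, with 138, 129 and 121 CPM in NC and 77.0, 88.2 and 86.7 CPM in si-EIF5A2. Its groups were well apart, at a log2 fold change of -0.62 ± 0.09 (SE, edgeR adjusted p = 9.74e-04).

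The call of SLC25A29 was lost without NC replicate 2, NC replicate 3 or si-EIF5A2 replicate 3, with edgeR adjusted p values of 0.0585, 0.0608 and 0.0681, in a range of 0.00463 to 0.0681. SLC25A39 went under the fold limit at -0.57 when either NC replicate 1 or si-EIF5A2 replicate 1 was left out, and SLC25A44 at 0.58 without si-EIF5A2 replicate 1. Of the 6 members of this group that were not called, SLC25A38, which brings glycine in for haem synthesis, had 36.7 to 60.0 CPM in NC and 66.6 to 71.0 CPM in si-EIF5A2, with 0.49 ± 0.17 (SE, edgeR adjusted p = 0.0516). The other aspartate/glutamate carrier, SLC25A12, the ornithine carrier SLC25A15 and the glutamate carrier SLC25A22 lay between 0.02 and 0.21. SLC25A40, the other glutathione importer, had -0.34 ± 0.26 (SE). SLC25A18, a glutamate carrier with at most 48 counts, had -1.52 ± 1.07 (SE, edgeR adjusted p = 0.315) and was not called.

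The adenine nucleotide and phosphate carriers held the most abundant members, and 1 of 7 tested was called (14.3%, beside 24.6% of all genes). By level per exon length the highest members in NC were SLC25A6 (998), SLC25A5 (940), SLC25A3 (258), MTCH1 (203) and MTCH2 (119), each as a mean on the length-scaled scale. That scale divides by merged exons, 8896 bases for SLC25A3 and 1500 for SLC25A5. In CPM SLC25A3 was the highest, at a mean of 830 in NC beside 782 for SLC25A6 and 510 for SLC25A5. The order and the shares that follow depend on these lengths. The ADP/ATP exchangers SLC25A4, SLC25A5 and SLC25A6 made up 59.6% ± 1.18 of the summed level of the family in NC and 55.7% ± 1.07 in si-EIF5A2 (SD, n = 3). With the phosphate carrier SLC25A3 the shares were 67.5% ± 0.913 and 62.3% ± 0.829, and no si-EIF5A2 library reached the lowest NC library. The summed level of the family was 3270 ± 93.3 in NC and 3070 ± 101 in si-EIF5A2, where 1 si-EIF5A2 library (3180) nearly equalled the lowest NC library (3190).

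SLC25A3 had 832, 828 and 831 CPM in NC and 646, 632 and 559 CPM in si-EIF5A2. Its NC libraries were within 4 CPM of each other and above all si-EIF5A2 libraries, and the log2 fold change was -0.44 ± 0.07 (SE, edgeR adjusted p = 0.00259), under the fold limit. SLC25A5, the exchanger of dividing cells, had -0.28 ± 0.08 (SE, adjusted p = 0.0277 from edgeR), and SLC25A6, expressed in most tissues, had -0.25 ± 0.10 (SE, edgeR adjusted p = 0.0949). SLC25A4, the exchanger of heart and muscle, had 18.9, 18.0 and 19.3 CPM in NC and 26.8, 27.5 and 26.7 CPM in si-EIF5A2. Its log2 fold change was 0.53 ± 0.09 (SE, edgeR adjusted p = 0.00253), and its share of the length-scaled exchanger level was 0.551% ± 0.0493 in NC and 0.948% ± 0.0624 in si-EIF5A2 (SD, n = 3). The size of that share depends on its merged exons, 4844 bases beside 1500 for SLC25A5. Thus the minor exchanger and the major exchangers lay on opposite sides of 0, none past the fold limit. SLC25A31, the exchanger of germ cells, was at 0 counts in every library.

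The called member of this group was SLC25A25 (chr9:128068201-128109245), a calcium-regulated carrier that exchanges ATP-Mg for phosphate. It had 14.5, 14.9 and 15.2 CPM in NC and 21.5, 27.2 and 22.5 CPM in si-EIF5A2. Each si-EIF5A2 library was at least 6 CPM above the NC libraries, and the log2 fold change was 0.68 ± 0.12 (SE, edgeR adjusted p = 0.00308), or 0.57 and under the fold limit without si-EIF5A2 replicate 2. SLC25A23, a relative with the same substrates, had 43.8, 41.6 and 39.6 CPM in NC and 32.6, 30.3 and 30.8 CPM in si-EIF5A2, with -0.42 ± 0.09 (SE, edgeR adjusted p = 0.00657). SLC25A24, the third carrier of this kind, had 0.23 ± 0.31 (SE, edgeR adjusted p = 0.622), with a wide spread between the si-EIF5A2 libraries. SLC25A25 overlaps SLC25A25-AS1 on the opposite strand, which had 1.34 to 3.62 CPM over the 6 libraries and was not called.

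Ratios of related members were compared in 11 pairs within each library, as ratios of length-scaled levels. The pairs share a kind of substrate, except MTCH1 over MTCH2, which are relatives in the outer membrane. The two-sided exact permutation test of 3 against 3 libraries cannot go below p = 0.10, so none of these could pass 0.05. SLC25A13 over SLC25A12 was 0.872, 0.870 and 0.917 in NC and 1.55, 1.59 and 1.56 in si-EIF5A2. SLC25A13 was thus the lesser of the aspartate/glutamate carriers in each NC library and the greater in each si-EIF5A2 library. SLC25A25 over SLC25A23 was 0.326, 0.353 and 0.379 in NC and 0.649, 0.885 and 0.719 in si-EIF5A2. SLC25A42 over SLC25A16 was 0.787, 0.456 and 0.450 in NC and 0.158, 0.245 and 0.308 in si-EIF5A2. These ratios, and those of SLC25A4 over SLC25A5 and over SLC25A6, did not overlap between the groups (exact permutation p = 0.10, Benjamini-Hochberg adjusted 0.22). The other 6 ratios overlapped, with exact permutation p from 0.30 to 0.90.

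**Figure D3:**
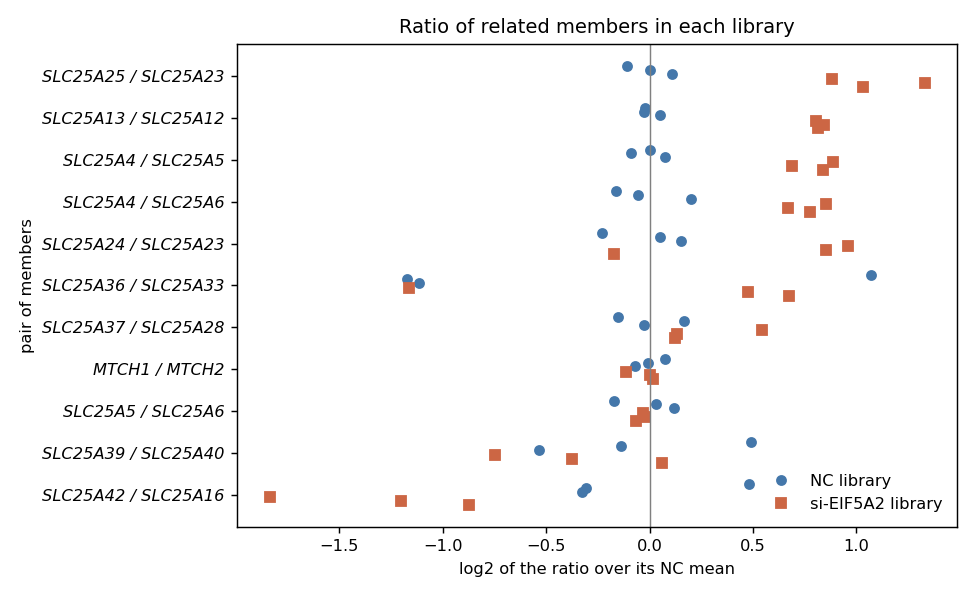
Log2 of each pair's ratio of length-scaled levels over its NC mean (x axis) for the 11 pairs (y axis) in each NC library (circles) and si-EIF5A2 library (squares). The groups separate in 5 pairs, such as SLC25A13 over SLC25A12 (0.886 ± 0.0269 in NC and 1.57 ± 0.0189 in si-EIF5A2, SD, n = 3), and overlap in the other 6.

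The outer-membrane relatives all lay above 0, and 1 of 3 was called (33.3%, beside 24.6% of all genes). SLC25A46 (chr5:110738136-110765161), which is linked to the shape of mitochondria, had 24.0, 27.2 and 28.9 CPM in NC and 66.6, 42.6 and 39.1 CPM in si-EIF5A2. The si-EIF5A2 libraries were all higher, replicate 1 the most, and the log2 fold change was 0.89 ± 0.21 (SE, edgeR adjusted p = 0.0133). Without NC replicate 1 the edgeR adjusted p was 0.0586, in a range of 7.71e-05 to 0.0586 over the alternatives. MTCH2, an insertase for proteins of the outer membrane, and MTCH1, its relative, had 0.30 ± 0.07 and 0.26 ± 0.09 (SE, edgeR adjusted p = 0.0114 and 0.0444), under the fold limit. Of the 3 members tested whose cargo was left unassigned, none was called. SLC25A45 had 1.74 to 2.46 CPM in NC and 1.11 to 1.58 CPM in si-EIF5A2, and SLC25A53 had 1.36 to 1.71 CPM and 2.18 to 3.07 CPM, without overlap in either; SLC25A43 had 0.04 (adjusted p = 0.966 from edgeR).

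The members outside the test were silent or nearly so. UCP1, SLC25A2, SLC25A31, SLC25A41, SLC25A47 and SLC25A48 were at 0 counts in all 6 libraries, and SLC25A52 had 4 counts in si-EIF5A2 replicate 3 and 0 elsewhere. With UCP3 these are the 8 members that did not pass the filter. Pseudogenes of the carriers, processed and unprocessed, took few counts. Those of SLC25A5 held 0.0207% to 0.0844% of the counts of gene and pseudogenes together, and the largest share of any parent gene was 0.731%, in SLC25A38.

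The proteins were compared with UCP2 after translating the principal GENCODE 29 coding sequence of each member. UCP2 has 309 residues, UCP3 shares 73.4% of the aligned positions with it and UCP1 58.4%. Among members tested, the closest were SLC25A30 (38.9%), SLC25A10 (38.5%), SLC25A14 (38.2%) and SLC25A27 (35.4%). Their log2 fold changes were 0.11, -1.83, 0.38 and -0.45, so the relatives nearest to UCP2 lay on both sides of 0, and SLC25A10 alone of them was called. The carrier signature, a proline, any residue, an acidic residue, any 2 residues and a basic residue, occurred 3 times in 30 members and was missing from 6: MTCH1, MTCH2, SLC25A46, SLC25A51, SLC25A52 and SLC25A53. Of the 12 called members 7 held it 3 times, as did 24 of the 45 members tested, with UCP2 in both counts.

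**Figure D4:**
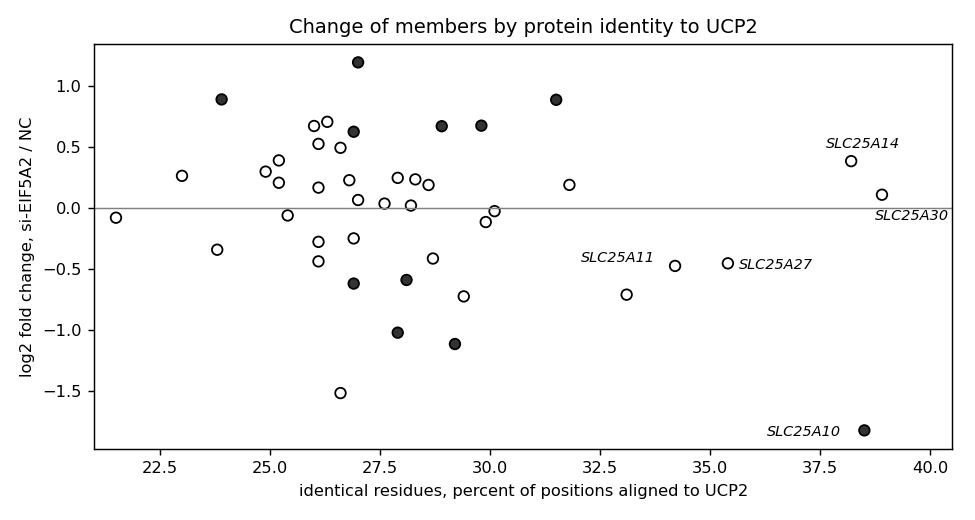
Log2 fold change of si-EIF5A2 over NC (y axis) against the percent of aligned positions identical to UCP2 (x axis) for the 44 tested members other than UCP2, called members filled. The members nearest to UCP2, SLC25A30 at 38.9%, SLC25A10 at 38.5% and SLC25A14 at 38.2%, have log2 fold changes of 0.11, -1.83 and 0.38.

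Genes next to UCP2 on chromosome 11 were examined within 250 kb. UCP3 lies 26.1 kb upstream of UCP2, measured between gene starts, and was near 0 as above. DNAJB13 was at 0 apart from 2 counts in NC replicate 2. RAB6A, MRPL48, COA4, PAAF1 and PPME1 had log2 fold changes between 0.02 and 0.20 and were not called. The start of C2CD3, a centriole gene, lies 187.9 kb from that of UCP2. The gene spans chr11:74012714-74171210, so its other end lies beside UCP3 (chr11:74000281-74009435). C2CD3 had 16.9, 17.9 and 20.1 CPM in NC and 8.88, 9.56 and 9.40 CPM in si-EIF5A2. Its groups did not overlap, and it fell by 0.98 ± 0.12 on the log2 scale (SE, edgeR adjusted p = 4.43e-04), while PPME1, whose start overlaps it on the opposite strand, had 0.02 ± 0.30 (SE).

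**Figure D5:**
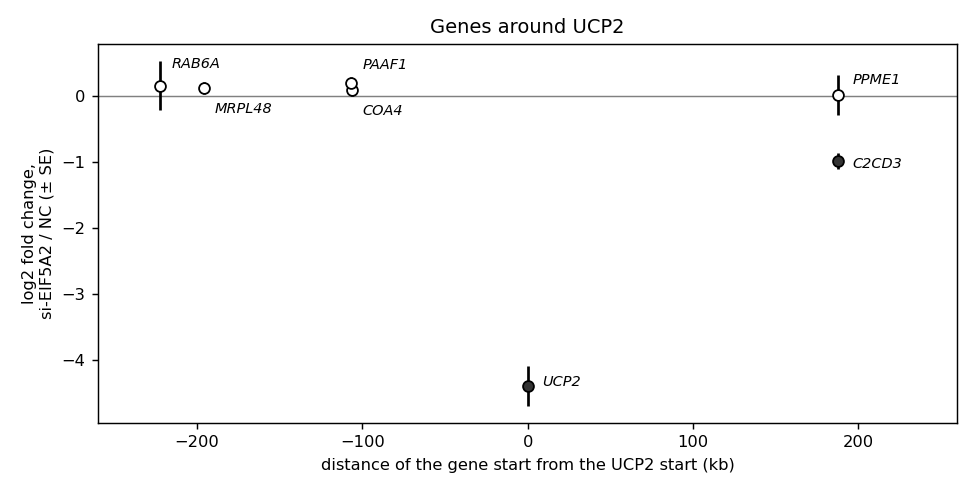
Log2 fold change of si-EIF5A2 over NC (y axis, ± SE) of protein-coding genes tested around UCP2 against the distance of their start from the UCP2 start in kb (x axis; called genes filled). UCP2 is at -4.39 and C2CD3 at -0.98, and the other 5 lie between 0.02 and 0.20.

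Among genes that bring carriers into the membrane, TOMM22 rose and TIMM10 fell. Of 17 import genes tested, 2 were called (11.8%, beside 24.6% of all genes). Their median log2 fold change was -0.17, beside -0.01 for all genes. TOMM22, a receptor subunit of the TOM complex, had 56.8, 53.5 and 47.3 CPM in NC and 108, 133 and 121 CPM in si-EIF5A2. It rose by 1.20 on the log2 scale (edgeR adjusted p = 9.9e-05). TIMM10, a small chaperone of the space between the membranes, fell by 0.63 (adjusted p = 0.00148 from edgeR). TOMM70, the receptor for carriers, had 0.33 and TIMM22, the insertion channel, had -0.22, neither called. The count of called import genes was 4 with NC replicate 1 left out and 1 with si-EIF5A2 replicate 3 left out.

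Of 24 transport genes of mitochondria outside the family, 6 were called (25%, near the 24.6% of all genes), 4 lower and 2 higher, with a median of 0.00. SFXN2, a sideroflexin, fell by 1.49, the transporter ABCB8 by 1.36, and MCUB, the inhibitory subunit of the calcium uniporter, by 0.88 on the log2 scale. MPC2, a subunit of the pyruvate carrier, rose by 0.79. Its partner MPC1 had 0.27 and was not called. Of 21 ATP synthase genes 1 was called (4.76%, beside 24.6% of all genes), the membrane subunit gene ATP5MD with 0.62, and the median was -0.11.

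Of 35 enzyme genes tested that make or use what the carriers move, 10 were called (28.6%), 8 lower and 2 higher, with a median of -0.13. By this rule the share is near the 24.6% of all genes called, of which 13.6% were lower and 11.1% higher as shares of all genes. The 8 lower of 35 are a larger share than that 13.6%, and the 2 higher a smaller one than that 11.1%. With no fold limit 18 of 35 passed, where 36.9% of all genes did. At the threshold of the methods 9 of 35 passed, where 14.6% did. Both shares were above those of all genes, and the difference was not tested. IDH2, the isocitrate dehydrogenase of the matrix that makes NADPH, had 20.4, 22.9 and 20.7 CPM in NC and 3.21, 3.83 and 3.40 CPM in si-EIF5A2. Its groups were about 6-fold apart, with a log2 fold change of -2.61 (edgeR adjusted p = 8e-06). BCAT2, the transaminase of branched-chain amino acids in the matrix, fell by 2.22, SHMT2, which makes glycine from serine in the matrix, by 1.65, and IDH1, the isocitrate dehydrogenase of the cytosol, by 1.38. SLC25A44 and SLC25A38, which carry the substrate of BCAT2 and the glycine that SHMT2 can make, had 0.63 and 0.49. The values of these carriers and enzymes lay on opposite sides of 0, though SLC25A38 was not called. SLC25A32, the carrier for folate and FAD, had -1.02 and lay on the same side as SHMT2. These carriers and enzymes were picked after their values were seen, and other carriers were not set beside enzymes.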

How the data were processed

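RNA of SKOV3 cells (NC, n = 3; si-EIF5A2, n = 3) was sequenced as paired-end mRNA libraries. StringTie and ballgown were run by the authors, and the deposited table holds estimated counts per gene, which are whole numbers and not normalized. The submitters' processing notes list Bowtie 0.12.2 and mouse genome builds, which cannot be the genome of this table of human genes. The human build, annotation release and strand setting are not given in the sources used here. StringTie shares fragments between overlapping transcripts, so genes with shared exons are less certain. The plan assumed plain counts; since every value is whole, no rounding was needed.

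The members, lists and tests were chosen with earlier results of these data known. All 6 columns were matched by name. Positions and exon lengths came from GENCODE 29 (GRCh38), which held 58552 of the 58825 identifiers. edgeR 4.0.16 (R 4.3.3) fitted the whole table: filterByExpr, TMM, robust quasi-likelihood fits with the condition as the only term, with p-values adjusted over 16208 genes (Benjamini-Hochberg). The common dispersion corresponds to a coefficient of variation of 0.261. Length-scaled levels use the merged exons, which understates genes with long, rarely used exons. Proteins were aligned globally with BLOSUM62 (Biopython 1.88), with free end gaps.

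Named were UCP1, UCP2, UCP3, every called member, the 5 highest by level, members outside the test, at most 4 called genes per other list, and EIF5A2. Some members, markers and sequences are not reported here. Other names were chosen after their values were seen. Same-numbered libraries did not deviate together (correlations of -0.0244, 0.00522 and -0.00269), so replicate numbers were not taken as pairs. Alternatives were DESeq2 1.42.0, other normalizations and filters, counts divided by their step, a replicate block, other thresholds, and leaving out each library.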

Additional observations from a re-analysis of the deposited data

How the results depend on the processing

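The family count of 12 called members, UCP2 included, was 19 with no fold limit and 5 at the threshold of the methods, and 8 to 11 when a library was left out. Of all genes tested, 24.6% were called by the main rule, 36.9% with no fold limit and 14.6% at the threshold of the methods. With a library left out, 21.8% to 23.3% of all genes were called, and these shares stand beside the counts of each list below. For import genes the count of 2 was 1 at the threshold of the methods and 1 to 4 when a library was left out. For other transport genes the count of 6 was 10 with no fold limit, 2 at the threshold of the methods and 5 to 6 when a library was left out. For ATP synthase genes the count of 1 was 3 with no fold limit and 0 at the threshold of the methods (edgeR gave 5 with an unadjusted p under 0.05), and 1 when any library was left out. For enzyme genes the count of 10 was 18 with no fold limit, 9 at the threshold of the methods and 10 to 13 when a library was left out. These thresholds change the counts by their construction; for the libraries left out the cause was not tested. With the replicate number as a block, 11 members were called, SLC25A20 (1.14) being the one lost (edgeR adjusted p = 0.127, in a range of 5.86e-04 to 0.127). Of all genes 3731 were called with the block (23% of those tested), where DESeq2 gave 4338 of 19584 (22.2%). None of the 12 called members, nor SLC25A3, SLC25A5, SLC25A6, MTCH1 and MTCH2, changed sign under the alternatives run, and values of other members under them were not examined. UCP2 ranged from -4.70 without si-EIF5A2 replicate 1 to -4.14 without si-EIF5A2 replicate 3. SLC25A26 also went under the fold limit with RLE factors and with library size only, at -0.58 in both. SLC25A20 was not called without the filter on low counts either. Members near the limit of 3 fragments, such as UCP3, could not be compared at this depth.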

Other observations

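Some members split by library rather than by group, a pattern chosen after their values were seen. SLC25A36, a pyrimidine nucleotide carrier, had 95.2 CPM in NC replicate 1 but 23.7 and 23.5 CPM in NC replicates 2 and 3. In si-EIF5A2 it had 27.9 CPM in replicate 1 but 90.8 and 109 CPM in replicates 2 and 3, so each group held both a high and a low level. Its log2 fold change of 0.67 ± 0.81 (SE, edgeR adjusted p = 0.581) is within that spread. SLC25A43, whose cargo was left unassigned, ranged from 29.9 to 32.7 CPM over the NC libraries and had 19.6 and 20.2 CPM in si-EIF5A2 replicates 1 and 2, and 57.0 CPM in si-EIF5A2 replicate 3. SLC25A24, a calcium-regulated ATP-Mg/phosphate carrier, ranged from 45.8 to 53.9 CPM over the NC libraries and reached 77.9 and 67.1 CPM in si-EIF5A2 replicates 1 and 2, with 33.5 CPM in si-EIF5A2 replicate 3. For both genes si-EIF5A2 replicate 3 lay on the other side of the NC libraries from the other 2 si-EIF5A2 libraries.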
